A study of Mus musculus with 19 samples.

Results

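The 9 wild-type samples of EDL muscle were described on their own, as 9 of the 19 samples in the series. The EDL (extensor digitorum longus) is a small muscle at the front of the lower leg that extends the toes. These samples came from FVB mice, an inbred albino strain, aged 19 weeks, with the wild-type genotype and no treatment named in the labels. The other 10 samples carry the HSALR genotype and were not compared here. Samples were taken by their title, and each was measured on 1 array. Nothing in the labels ties the 9 samples to 9 separate animals, so part or all of an SD given here may be technical spread.

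Muscle fibres are classed by the myosin heavy chain they contain. Fast fibres use the type II chains, encoded by Myh4 (IIb), Myh1 (IIx) and Myh2 (IIa), and slow fibres use the beta chain encoded by Myh7, each with its own set of light chains, troponins and calcium pumps. The rodent EDL is known as a muscle of mostly fast fibres with few slow ones. A piece of whole muscle also holds blood, vessels, nerve, connective tissue and resident immune cells, and many of its genes respond within minutes to hours to activity, feeding, hormones, heat and handling.

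Signals are given as log2(intensity + 16) after quantile normalization, which gives all 9 arrays the same distribution of values. A signal at the bottom of this scale is 4, and folds on it understate the change of dim genes. Each of 18193 genes was represented by its brightest probe set (a group of short probes for 1 transcript). Probe sets differ in how strongly they bind, so the order of genes below is an order of signal and not of transcript number. Before normalization the array median lay between 49.6 and 54.4 in 8 samples and at 71.9 in replicate 1. Pairs of samples correlated at 0.969 to 0.986 across genes (Pearson), and replicate 9 had the lowest median correlation with the others, 0.972. The mean log2 3'/5' ratio of the actin and Gapdh control probe sets, a measure of RNA integrity, lay between -0.15 and 0.02.

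The brightest genes of wild-type EDL were those of the fast contractile apparatus and of energy supply. Tnnt3 and Tnni2, the fast isoforms of troponin T and troponin I, ranked first and second, with signals of 13.97 and 13.86. Mylpf and Myl1, the light chains of fast myosin, had signals of 13.75 and 13.66. Myh1 had a signal of 13.72 ± 0.05 (SD, n = 9) and Myh4 one of 13.69 ± 0.03 (SD, n = 9). Ttn, the giant elastic protein titin, reached 13.66, Acta1, skeletal alpha actin, 13.57, and Pvalb, the calcium buffer parvalbumin of fast fibres, 13.54. Among the 20 brightest genes, the others with a role in energy supply were Uqcrb and Cox5a, subunits of respiratory complexes III and IV, Cycs, cytochrome c, and ND5, a mitochondrially encoded subunit of complex I. Slc25a4, which exchanges ADP for ATP across the inner mitochondrial membrane, Aldoa and Eno3, enzymes of glycolysis, and Ckm, muscle creatine kinase, stood with them. The remaining 3 were Rps29, a ribosomal protein, Tpt1, the translationally controlled tumour protein, and Fth1, the iron store ferritin heavy chain.

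Of all genes, 1.1% can stand among the 200 brightest. In the listed groups the count was 16 of 18 fast fibre proteins, 37 of 47 subunits of oxidative phosphorylation, 9 of 23 proteins of glycolysis and glycogen, and 4 of 7 creatine kinase and adenylate enzymes. It was 10 of 20 thin filament and Z-disc proteins, 5 of 11 giant and M-band proteins, 7 of 19 proteins of calcium release and uptake, and 10 of 29 cytosolic ribosomal proteins. Symbol matching placed Pigq, which is not a glycolytic enzyme, in the glycolysis and glycogen list, at 9.5. It also placed Mrpl23, a mitochondrial ribosomal protein, in the cytosolic ribosomal list, at 11.1. Both are counted in the totals and medians of those lists. The fast fibre members outside the 200 brightest were Mylk2, the myosin light chain kinase of skeletal muscle, at 10.99 and Sypl2, a protein of the triad membranes, at 10.44. Median signals were 13.47 for fast fibre proteins, 12.51 for thin filament and Z-disc proteins and 12.30 for glycolysis and glycogen, against 6.86 over all genes. High signals are compressed on these arrays, and close ranks at the top are set by small differences.

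The slow fibre list lay lower, with a median of 10.31 over its 19 measured genes and 2 of them among the 200 brightest. These were Mb, myoglobin, the oxygen store of oxidative fibres, at 13.50 and Mybpc1, slow myosin-binding protein C, at 13.36. Both genes are also expressed in fast fibres. Myh2, the IIa heavy chain, had a signal of 13.25 ± 0.19 (SD, n = 9). The developmental heavy chains Myh3 (embryonic) and Myh8 (perinatal) had signals of 7.02 ± 0.32 and 6.56 ± 1.03 (SD, n = 9).

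**Figure D1:**
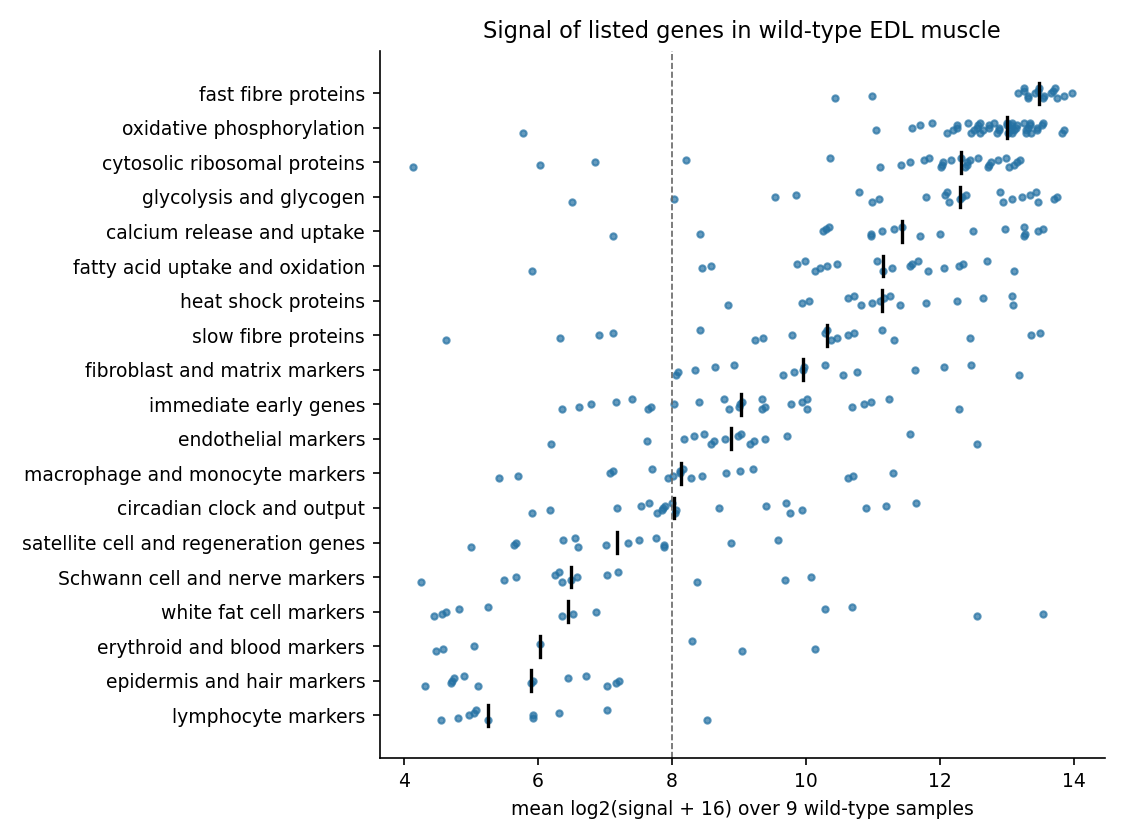
Mean signal over the 9 wild-type samples, as log2(intensity + 16), of the measured genes of 19 lists. Each point is 1 gene, the bar is the list's median and the dashed line marks a signal of 8. Fast fibre proteins have the highest median, 13.47, and lymphocyte markers the lowest of the lists drawn, 5.25.

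Lists of markers of the other tissues of the leg had lower median signals. Fibroblast and matrix markers had a median signal of 9.96, endothelial markers 8.89, macrophage and monocyte markers 8.14, Schwann cell and nerve markers 6.50 and white fat cell markers 6.44. All 13 epidermis and hair markers and all 11 neutrophil and mast cell markers lay below 8. Alb, serum albumin of the liver, stood at 6.08 ± 0.28 and Myh6, the heart's alpha myosin, at 7.24 ± 0.40 (SD, n = 9). Adipoq, the fat cell hormone adiponectin, had a signal of 6.36 ± 0.49 (SD, n = 9). Of the 12 measured fat cell markers, 4 had a signal of 8 or more. These were Car3 at 13.54, Fabp4 at 12.56, Plin4 at 10.69 and Pnpla2 at 10.29. The Y-linked genes Eif2s3y and Uty had signals of 9.37 ± 0.10 and 8.69 ± 0.10 (SD, n = 9), and Xist, which is transcribed from the inactive X chromosome, one of 6.57 ± 0.25, and the 9 samples spanned at most 1.76-fold in each of these 3 genes. Their dimmer probe sets had means of 4.27 and 4.58 for Xist, near the bottom of the scale, 4.95 for Eif2s3y and 7.2, 6.1 and 5.7 for Uty.

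Above a signal of 5.5, the spread between samples fell as signal rose. The median SD was 0.16 for genes with a mean of 8 to 8.5, 0.12 at 10 to 10.5 and 0.04 at 13.5 to 14. Quantile normalization adds to this at the very top: Tnnt3 had the highest value on each array, so its normalized SD is 0. Of 5834 genes with a mean signal of 8 or more, 80 had an SD of at least 0.5, which is 1.37%, and the median SD of the 5834 was 0.13. These 80 are called variable below. They were chosen by the SD, so no test is attached to them. Just below the level threshold, Cog7, a Golgi tethering subunit, had a mean of 7.96 and an SD of 0.53, and just above it Trnp1 had a mean of 8.07 and an SD of 1.03. At the threshold of spread, the kinase gene Pim3 lay inside with an SD of 0.503, and Fbxo32, a ubiquitin ligase of muscle atrophy, lay outside with 0.495.

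**Figure D2:**
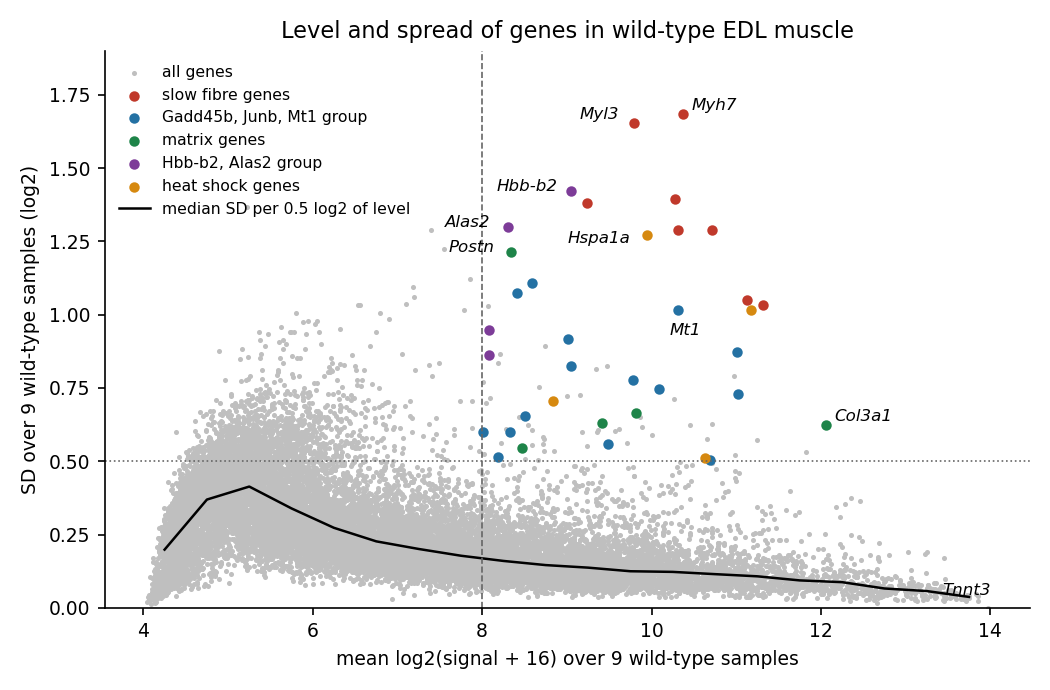
SD over the 9 wild-type samples (log2) against mean signal, log2(intensity + 16), for 18193 genes. Colours mark 5 groups of variable genes that moved together, the black line is the median SD per 0.5 of signal, and dashed and dotted lines mark a signal of 8 and an SD of 0.5. The slow fibre genes Myh7 and Myl3 have the largest SDs at a signal of 8 or more, 1.68 and 1.65.

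Several large classes of muscle genes had SDs near the median of all genes of their signal. At the highest signals many of those genes are members of these same classes, so the comparison is partly with themselves. At a signal of 8 or more, the fast fibre list had 18 members and that of oxidative phosphorylation 46. The glycolysis and glycogen list had 22, Pigq among them, and the cytosolic ribosomal list 26, Mrpl23 among them. The thin filament and Z-disc list had 20. Of all genes at such a signal 1.37% were variable, and no member of these lists was. Their median SDs were 0.05, 0.05, 0.08, 0.07 and 0.08, and those of all genes with a mean of 12 to 12.5, 12.5 to 13 and 13 to 13.5 were 0.09, 0.07 and 0.06. Without normalization the fast fibre and oxidative phosphorylation medians were 0.08, and with arrays aligned on their medians they were 0.17 and 0.15. These values are not set beside genes of like signal here. After Tnnt3, the genes with the smallest SDs were Rpl7a, a ribosomal protein (12.66 ± 0.02, SD, n = 9), Eno3, Uqcrb, Atp5pb, a subunit of the ATP synthase, Dnaja2, a cytosolic co-chaperone, Cox4i1, Ndufb5, Oaz1, the antizyme that limits polyamine synthesis, and Ldha, the muscle lactate dehydrogenase. Their SDs lay between 0.02 and 0.03, so the signal of each spanned at most 1.06-fold across the 9 samples.

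The 80 variable genes were grouped by how they moved across the 9 samples (average linkage at a Pearson correlation of 0.7). The group with the largest SDs on average held 8 slow fibre genes, and Myh7 and Myl3 among them had the largest SDs of all. Myh7 had signals of 7.73, 11.45, 12.20, 10.29, 11.06, 11.93, 7.54, 10.88 and 10.29 in replicates 1 to 9, a mean of 10.37 ± 1.68 (SD, n = 9). Replicates 1 and 7 were the lowest, well apart from the other 7, and the highest sample was 25.2-fold above the lowest. This SD was 13.7 times the median SD of genes at a like signal. In bulk muscle, fewer slow fibres and less slow-type RNA per fibre cannot be told apart.

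The other slow components followed Myh7. Myl3, the essential light chain of slow myosin, ranged from 7.25 over a median of 10.03 to 11.67, with an SD of 1.65. Myl2, its regulatory light chain, ranged from 9.64 over 11.63 to 12.53, with an SD of 1.03. The slow troponins behaved alike: Tnnc1 (troponin C) ranged from 8.17 to 12.01, Tnni1 (troponin I) from 6.99 to 10.88 and Tnnt1 (troponin T) from 8.16 to 11.80, with SDs of 1.39, 1.38 and 1.29. Tpm3, slow tropomyosin, ranged from 8.52 to 11.95 (SD 1.29). Atp2a2, the calcium pump SERCA2 of slow fibres and heart, ranged from 9.43 to 12.28 (SD 1.05), while Atp2a1, the fast pump SERCA1, ranged from 13.35 to 13.62 (SD 0.10). In all 8 genes replicates 1 and 7 were the lowest, under each of the 4 scalings tried. That pattern, noticed in these values, held for 85 of the 5834 genes, or 1.46%, of which 8 were variable. It held for 8 of the 15 slow fibre genes at a signal of 8 or more.

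The members of the slow fibre list were not all alike. Of the 15 at a signal of 8 or more, 9 were variable, with a median SD of 1.03, against 1.37% and 0.13 over all genes there. The ninth was Csrp3, the muscle LIM protein, which ranged from 9.45 in replicate 7 to 11.42 in replicate 5. Mb and Mybpc1 had SDs of 0.06 and 0.04, and Actn2, the Z-disc alpha-actinin found in all fibres, 0.12. Casq2, the calsequestrin of slow and cardiac fibres, had an SD of 0.44, Ankrd2, a stretch-responsive protein, 0.41 and Myoz2, the slow calsarcin, 0.35.

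**Figure D3:**
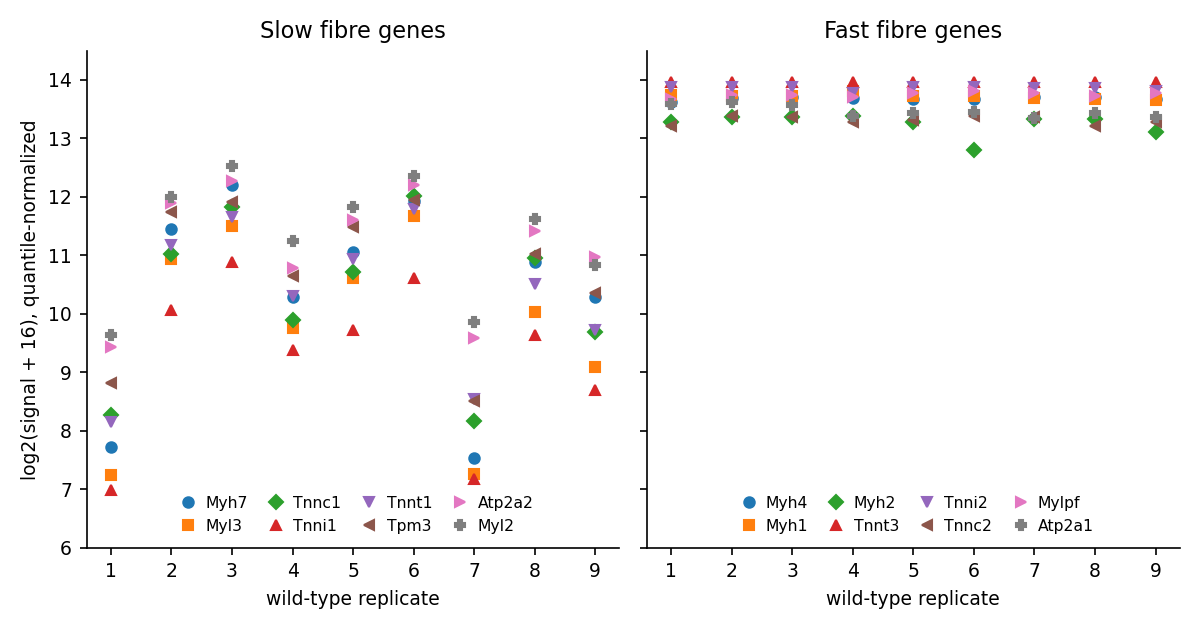
Signal, log2(intensity + 16), of 8 slow fibre genes (left) and 8 fast fibre genes (right) in each wild-type replicate; each marker is 1 gene in 1 sample. All 8 slow genes are lowest in replicates 1 and 7, while of the fast genes Myh2 spans the widest range, 12.80 to 13.39.

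Other probe sets of the same genes agreed in part. For Myl3 both had large SDs, 1.48 and 1.39. For Tpm3 and Atp2a2 the sets next in brightness had SDs of 1.23 and 0.93, while those after them, with means of 9.38 and 9.44, had SDs of 0.27 and 0.15. Leaving out replicates 1 and 7 together, a choice made after seeing the data, lowered the SD of Myh7 to 0.75, that of Myl3 to 0.95 and the median SD of the slow fibre list to 0.58. Over the 7 samples that are left, Myh7 still ranged from 10.29 to 12.20.

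Replicates 1 and 7 did not stand together in the quality measures. Their array medians were the highest and the lowest of the 9, 71.9 and 49.6, and their 3'/5' ratios were -0.02 and -0.06. They did stand together on the third principal component of the 5834 genes, an axis of shared variation that held 15.03% of the variance. On it replicates 1 and 7 scored 8.6 and 8.5, and the others from -7.9 to 2.9. Of the fast heavy chains, Myh1 had signals of 13.74 and 13.70 in replicates 1 and 7, Myh4 13.62 and 13.71, and Myh2 13.29 and 13.34. Myl4, the atrial and fetal light chain, had its lowest values there, 7.49 and 7.61 against 7.82 to 8.42 in the others, and so did Myh6, with 6.64 and 6.65 against 7.11 to 7.76. The heart markers Nppa and Tnni3 had mean signals of 5.09 and 4.62. Endothelial markers averaged 9.48 and 9.23 in these samples and 9.20 to 9.46 in the others. The part of other tissues in the slow fibre pattern was not tested.

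To show the sequence next to these genes, promoter letters were taken from RefSeq (GRCm38.p6), from 250 bases before the start to the base before it. Of the 37 genes of the 5 main groups and Fos, 29 had an entry. The MCAT element, CATTCC on either strand, is the binding site of TEAD factors and is well known in promoters of muscle genes. It was present in 3 of the 7 matched slow fibre genes, while 12.6% of 32841 promoter windows of this length hold it. The element of MEF2, another muscle motif searched, was in 0 of the 7 and is in 0.509% of windows. Motifs not tied to this group by choice were searched too. The serum response element, CC, 6 of A or T, then GG, was in 1 of the 7, Myl3, and is in 1.47% of windows. The GATA motif, AGATAA, was in 2 of the 7, Tpm3 and Myl2, and is in 9.99% of windows. A gene with several starts has several windows, and here and below it was counted if any of them held the motif. The percentages are of single windows, so the counts of genes and these shares differ in unit. Capitals mark the MCAT element only, which starts 201 bases before the first start of Myh7, 177 and 149 bases before that of Myl3 and 58 before that of Tnnc1. The windows are chr14:54994627-54994876 on the minus strand, chr9:110763428-110763677 on the plus strand and chr14:31208062-31208311 on the plus strand.
Myh7: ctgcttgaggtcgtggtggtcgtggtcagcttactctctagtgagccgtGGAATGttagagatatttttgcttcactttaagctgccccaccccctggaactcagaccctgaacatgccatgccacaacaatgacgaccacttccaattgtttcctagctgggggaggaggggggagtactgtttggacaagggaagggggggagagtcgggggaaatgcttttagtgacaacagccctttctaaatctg
Myl3: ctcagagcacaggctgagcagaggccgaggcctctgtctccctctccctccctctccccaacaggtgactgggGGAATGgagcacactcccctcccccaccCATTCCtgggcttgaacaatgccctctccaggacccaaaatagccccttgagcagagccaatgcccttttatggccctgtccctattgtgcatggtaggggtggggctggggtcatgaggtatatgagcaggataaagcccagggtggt
Tnnc1: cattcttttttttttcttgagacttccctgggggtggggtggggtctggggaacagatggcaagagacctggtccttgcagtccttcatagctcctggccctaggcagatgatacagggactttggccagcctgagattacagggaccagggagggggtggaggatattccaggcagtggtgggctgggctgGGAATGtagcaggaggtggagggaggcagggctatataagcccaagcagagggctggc
A match is a description of these letters and not evidence of a site in use.

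The most numerous group held 15 genes that were highest in replicate 9 and, in 11 of the 15, next highest in replicate 2. Averaged over the group, replicate 9 stood 1.57 and replicate 2 stood 0.67 above the gene's own mean, and replicate 7 was lowest at -0.61. Of the 15, Junb, Nr4a3, Zfp36 and Btg2 belong to the list of immediate early genes, and Mt1, Mt2 and Ddit4 to the list of glucocorticoid and fasting responsive genes. Junb, a subunit of the transcription factor AP-1, had signals of 8.57, 9.57, 8.64, 7.72, 7.54, 7.30, 7.49, 8.32 and 10.52 in replicates 1 to 9, an SD of 1.07. Gadd45b, a stress-induced regulator of growth, reached 10.78 in replicate 9 and 10.13 in replicate 2, against 7.67 to 8.45 in the other 7 samples. Both genes thus showed replicates 9 and 2 above all the others.

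The metallothioneins Mt1 and Mt2, small zinc-binding proteins induced by metals and glucocorticoids, belonged to the same group. Mt1 had signals of 9.45, 11.58, 10.21, 9.73, 9.67, 9.79, 9.85, 10.06 and 12.46 in replicates 1 to 9. Mt2 ranged from 10.13 over a median of 10.71 to 12.71. Nr4a3, an orphan nuclear receptor, had 11.07 in replicate 9 and 8.09 in replicate 6. Zfp36, which destabilizes messenger RNAs of inflammation, reached 10.57, Btg2, an inhibitor of growth, 11.36 and Ddit4, an inhibitor of mTORC1 signalling, 12.42, each highest in replicate 9. Slc25a25, a mitochondrial carrier of ATP-Mg, and Sik1, a salt-inducible kinase, had SDs of 0.75 and 0.65. The group also held Cd14, a receptor of monocytes, Cldn5, an endothelial tight junction protein, Pim3, Ankrd33b and C730049O14Rik.

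A single sample carried much of this. Without replicate 9 the SD of Mt1 was 0.66 in place of 1.02, that of Nr4a3 0.53 in place of 0.92 and that of Sik1 0.37 in place of 0.65. For Ankrd33b it was 0.20 in place of 0.56, for C730049O14Rik 0.28 in place of 0.51 and for Pim3 0.26 in place of 0.50. Cd14 and Cldn5 fell to 0.43 and 0.40. The next brightest probe set of Ankrd33b, with a mean of 9.06, was also highest in replicate 9, but its SD over all samples was 0.14. Replicate 9 was also the sample with the lowest median correlation with the others. Its 3'/5' ratio of -0.09 lay inside the range of the other samples. Its endothelial and macrophage marker averages, 9.35 and 9.08, lay inside the range of the others, but those of other lists were the lowest of the 9. It averaged 10.03 over smooth muscle and pericyte markers, against 10.12 to 10.37, 8.79 over the 2 satellite cell and regeneration genes, against 9.10 to 9.46, and 9.98 over interferon-responsive genes, against 10.37 to 10.90. Fibroblast and matrix markers (9.79, against 9.80 to 10.88) and class II genes (8.21, against 8.30 to 9.43) were lowest there as well, but by little. The part of these cells in the pattern of replicate 9 was not tested.

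Mt2 illustrates the promoter letters of this group. The metal response core, TGCGCNC or TGCACNC on either strand, is the centre of the element bound by the zinc-sensing factor MTF1. It was present in at least 1 window of 8 of the 12 matched genes of the group, and 21.4% of single promoter windows hold it. Of the other motifs searched, CRE, TGACGTCA, was in 2 of the 12 and is in 1.55% of windows. MCAT was in 2 and the serum response element in 1. In Mt2 the metal response core starts 223, 128 and 50 bases before the start, within chr8:94172368-94172617 on the plus strand, and capitals mark it.
Mt2: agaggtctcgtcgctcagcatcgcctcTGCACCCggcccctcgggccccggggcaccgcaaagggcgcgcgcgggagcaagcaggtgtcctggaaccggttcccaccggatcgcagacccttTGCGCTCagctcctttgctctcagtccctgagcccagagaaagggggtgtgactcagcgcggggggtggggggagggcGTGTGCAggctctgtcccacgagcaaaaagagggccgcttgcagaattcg

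The wider list of immediate early genes, which cells switch on within minutes of a stimulus, also held many of the variable genes. Of its 19 members at a signal of 8 or more, 10 were variable, against 1.37% of all genes there. Its median SD was 0.54, against 0.13. These 10 genes did not form 1 pattern. Fos, a subunit of AP-1, had signals of 11.22, 12.28, 10.70, 10.21, 10.57, 9.74, 10.81, 11.74 and 11.47 in replicates 1 to 9, highest in replicate 2 and lowest in replicate 6. It grouped with Dusp1, a phosphatase of MAP kinases, and Atf3, a stress-induced transcription factor. Nr4a2, an orphan nuclear receptor, Hes1, an effector of Notch, Adamts9 and Irs2, an adaptor of the insulin receptor, formed another group, each lowest in replicates 6 and 7. Nr4a1, the brightest of the list at 12.29, had an SD of 0.35 and Jund one of 0.14.

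Genes known to respond to glucocorticoids and fasting were variable in 6 of 19 cases, against 1.37% of all genes at a signal of 8 or more. The list's median SD was 0.31, against 0.13. The 6 variable ones were Mt1, Mt2, Ddit4, Irs2, Cebpd, a transcription factor, and Pdk4, the kinase that shuts off pyruvate dehydrogenase in fasting muscle. Pdk4 had signals of 11.12, 12.22, 11.84, 11.69, 12.09, 11.36, 11.93, 11.27 and 12.82 in replicates 1 to 9. It was highest in replicate 9, and Trim63, a ubiquitin ligase of muscle atrophy, was highest there too, at 12.91 against 11.96 to 12.40. Of the 21 measured members, 18 had their highest value in replicate 9, among them Sgk1, a kinase, and Tsc22d3, the leucine zipper protein induced by glucocorticoids, although their SDs were 0.12 and 0.13. Mt1, Mt2 and Ddit4, of the group above, are also among the 18. Replicate 9 was the highest in 20 of the 80 variable genes, but these were chosen by their SD. The share of replicate 9 over all genes was not counted, so whether 18 of 21 exceeds it is not known. The members of this list at a signal of 8 or more averaged 11.16 in replicate 9 and 10.14 to 10.71 in the others.

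Of the clock genes, none of the 10 members at a signal of 8 or more was variable, where 1.37% of all genes were. The clock list's median SD of 0.21 was above the 0.13 of all genes at such signals. Dbp, a clock-driven transcription factor, ranged from 9.11 to 10.01, Per1, a repressor of the clock, from 8.72 to 9.71, and Arntl, which encodes its activator BMAL1, from 7.53 to 8.30. Nfil3, a repressor of clock output, was highest in replicate 9, at 10.78 against 9.48 to 10.14.

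A group of 4 genes was led by genes of red cells. Hbb-b2, a beta globin chain, had signals of 9.94, 9.99, 9.88, 9.11, 7.87, 7.07, 8.45, 11.52 and 7.64 in replicates 1 to 9, a mean of 9.05 ± 1.42 (SD, n = 9). Alas2, the first enzyme of heme synthesis in red cell precursors, ranged from 6.56 over a median of 8.06 to 10.43. Both were highest in replicate 8 and lowest in replicates 6, 9 and 5. Mkrn1, a ubiquitin ligase, and Rsad2, an antiviral protein induced by interferon, grouped with them and reached 9.90 and 10.24 in replicate 8. Without replicate 8 their SDs were 0.56 in place of 0.86 and 0.53 in place of 0.95. Slc4a1, the red cell anion exchanger, lay below the threshold with a mean of 6.03 and was likewise highest in replicate 8, at 8.12, and lowest in replicate 6, at 4.67. Markers of white cells were also high in replicate 8. Of 11 neutrophil and mast cell markers, all below a signal of 8, 8 were highest there, including S100a8 and S100a9, subunits of calprotectin, with SDs of 1.02 and 1.22. Replicate 8 was the highest in 5 of the 80 variable genes, but these were chosen by their SD at a signal of 8 or more. The share of replicate 8 over all genes, or over those below 8, was not counted. Whether 8 of 11 exceeds it is not known. The macrophage and monocyte markers averaged 9.39 in replicate 8 and 8.79 to 9.34 in the others. The part of other blood cells in this pattern was not tested.

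The globin signal is uncertain because the beta globin genes are close copies. A second probe set named Hbb-b2, with a mean of 7.83 and an SD of 0.36, was lowest in replicate 8, where the first was highest. It was highest in replicate 9, where the first was low at 7.64. In replicate 6, the lowest of the first set at 7.07, the second was also low, at 7.63. The probe sets named Hba-a1 and Hba-a2 had mean signals of 4.59 and 5.04. Bpgm, which makes the red cell's regulator of oxygen release and is expressed elsewhere too, was highest in replicate 8, at 10.92 against 9.80 to 10.26. The other 4 members of the interferon-responsive list at a signal of 8 or more were not among the variable genes, which are 1.37% of all genes there. B2m, one of them, the light chain of class I molecules, ranged from 11.57 in replicate 9 to 12.77 in replicate 2.

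The inducible heat shock genes formed a group of 4. Hspa1a, which encodes the inducible chaperone HSP70, had signals of 11.28, 9.50, 11.22, 9.71, 11.11, 8.04, 8.61, 11.14 and 8.89 in replicates 1 to 9, a mean of 9.95 ± 1.27 (SD, n = 9). Replicates 1, 3, 5 and 8 lay within 0.2 of each other and above 11, and the other 5 lay below 10. Hspa1b, a nearly identical copy whose probes may bind both transcripts, ranged from 9.34 to 12.26 (SD 1.01). The co-chaperones Dnajb1 and Dnaja1, which deliver clients to HSP70, had SDs of 0.71 and 0.51, with the highest values in the same 4 samples. The constitutive chaperones Hspa8 and Hspa5 had SDs of 0.12 and 0.14. The small heat shock proteins Cryab and Hspb6, abundant in muscle, had SDs of 0.09 each at signals near 13. In the list, 4 of 16 genes were variable and the median SD was 0.18, against 1.37% and 0.13 over all genes at a signal of 8 or more.

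Heat shock elements are inverted repeats of the unit GAA bound by HSF1. A pair of units, GAANNTTC, was present in 3 of the 4 genes of the group, and 6.7% of promoter windows hold it. A run of 3 units, which 0.466% of windows hold, was found in none of the 4. In Hspa1a the pair starts 104 bases before the start, within chr17:34972157-34972406 on the minus strand, and capitals mark it.
Hspa1a: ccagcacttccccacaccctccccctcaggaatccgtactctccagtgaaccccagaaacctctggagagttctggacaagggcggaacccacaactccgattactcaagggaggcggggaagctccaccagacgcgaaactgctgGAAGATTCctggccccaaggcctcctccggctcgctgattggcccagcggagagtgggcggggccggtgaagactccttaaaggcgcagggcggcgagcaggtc

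A group of 5 matrix genes was highest in 1 sample. Postn, periostin, a matrix protein made in injured and growing tissue, had signals of 7.79, 7.68, 7.97, 11.44, 8.70, 7.63, 7.65, 8.33 and 7.91 in replicates 1 to 9. Replicate 4 stood far above the next sample, replicate 5, and without it the SD was 0.38 in place of 1.21. Col1a1 and Col3a1, the main fibrillar collagens, were also highest in replicate 4. Col3a1 reached 13.14 there, against 11.19 to 12.65 in the others, and Col1a1 was 4.03-fold higher there than in replicate 6, its lowest sample. Col5a2 and Col14a1 completed the group, and without replicate 4 their SDs were 0.39 in place of 0.63 and 0.33 in place of 0.55. Other probe sets of Col1a1 and Col3a1 were likewise highest in replicate 4, with SDs of 0.77 and 0.87.

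Other connective tissue markers were mixed. Of 16 fibroblast and matrix markers, 11 were highest in replicate 4, Postn, Col1a1 and Col3a1 among them, while Dcn, decorin, and Pdgfra, a receptor of fibroblasts, were highest in replicate 2 and 3 others in replicate 8. The 13 markers outside the group averaged 10.65 in replicate 4 and 9.89 to 10.42 in the others. Of 16 tendon and cartilage markers, 7 were highest in replicate 4, and the list's average was 10.68 there and 10.73 in replicate 2. Replicate 4 was the highest in 9 of the 80 variable genes, but these were chosen by their SD. The share of replicate 4 over all genes was not counted, so whether 11 of 16 and 7 of 16 exceed it is not known. Tnmd, the tendon protein tenomodulin, was highest there at 11.11, against 9.98 to 10.55, and Kera, keratocan, at 10.51, against 9.0 to 10.08. Chad, chondroadherin of cartilage and tendon, was lowest there, at 8.52. Macrophage markers averaged 9.34 in replicate 4 and 8.79 to 9.39 in the others. Myh3, the embryonic myosin of regenerating fibres, had a signal of 7.29 in replicate 4 and 6.47 to 7.36 elsewhere. The part of these tissues in the high collagen signals was not tested.

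**Figure D4:**
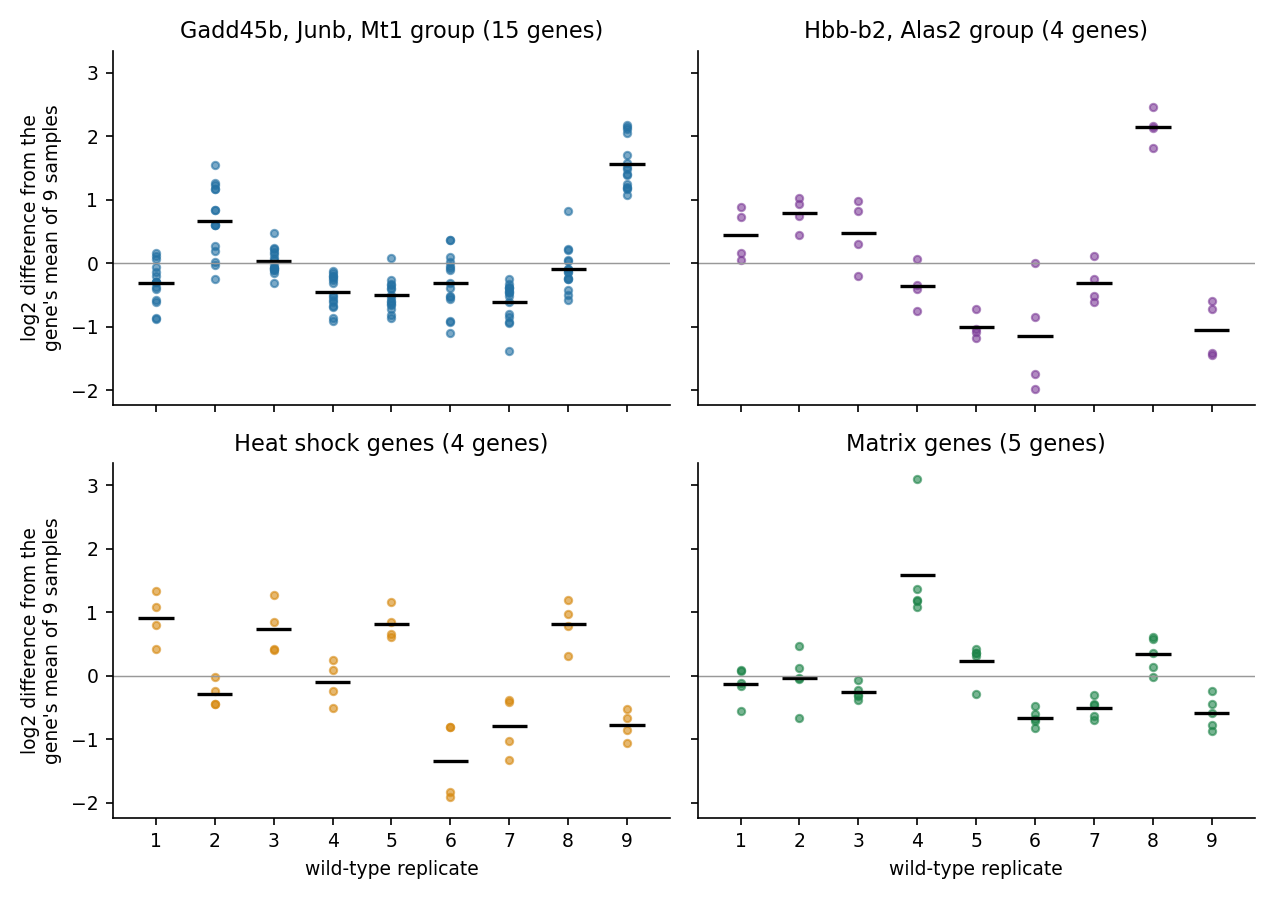
Difference of each gene from its own mean over the 9 wild-type samples (log2), by replicate, for 4 groups of variable genes; points are genes and bars their mean. The first group is highest in replicate 9 (1.57), the globin group in replicate 8 (2.15), the heat shock genes in replicates 1, 3, 5 and 8 (0.74 to 0.91) and the matrix genes in replicate 4 (1.59).

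Smaller groups followed other samples. Iigp1 and Igtp, interferon-inducible GTPases, Cd74, the invariant chain of class II molecules, and Egr1 were on average highest in replicates 2 and 6 and lowest in replicate 9. The class II genes H2-Aa and H2-Ab1 were also highest in replicate 6, at 9.87 and 9.35, with SDs of 0.49 and 0.41. Socs2 and Cish, feedback inhibitors of cytokine and growth hormone signalling, were highest in replicate 7, at 10.29 and 10.48, and above their means in replicate 8. Trnp1 ranged from 6.30 in replicate 4 to 9.45 in replicate 7, and Dkk3, a secreted protein, grouped with it. The endothelial genes Sox18 and Aplnr were lowest in replicate 9, at 6.91 and 7.31. Without that sample their SDs were 0.34 in place of 0.65 and 0.40 in place of 0.61.

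A further 15 variable genes grouped with no other. Cxcl1, a chemokine that draws neutrophils, was at 9.81 in replicate 2 and between 7.51 and 8.16 elsewhere, and its SD without replicate 2 was 0.23 in place of 0.70. Abhd12, a lipase, was at 6.72 in replicate 5 and between 8.33 and 8.82 elsewhere, and its SD without replicate 5 was 0.19 in place of 0.61. A second probe set of Abhd12, with a mean of 7.2 and an SD of 0.30, did not repeat this. It was at 7.24 in replicate 5 and lowest in replicate 6, at 6.5. Pom121, a nuclear pore protein, had signals above 10 in replicates 1, 3 and 6 and between 8.84 and 9.07 in the others. Some genes did not repeat across probe sets: those of Qars, glutaminyl-tRNA synthetase, and Nup62, a nuclear pore protein, had SDs of 0.71 and 0.65 in the brightest set and at most 0.16 and 0.18 in the other sets with a mean of at least 7. Of the 80 variable genes, 31 had a further probe set with a mean of at least 7, and in 19 of these one such set had an SD of at least 0.5 too.

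Some of the spread followed replicates 1, 2 and 3 together, and the labels name no batch. Among the 5834 genes, 242 (4.15%) had their 3 highest values in these samples and 329 (5.64%) their 3 lowest. These counts were made after the values were seen, and 3 and 1 of the genes were variable. The second principal component of the 5834 genes, an axis of shared variation, held 19.84% of their variance, and the first 20.23%. On the second, replicates 1, 2 and 3 scored 7.4, 8.5 and 7.4, and the others from -8.1 to 1.1. Psmb7, a proteasome subunit, had signals of 11.44 to 11.60 in replicates 1, 2 and 3 and 9.90 to 10.63 in the others. Eri3, an exonuclease, and Mlf2 followed it, and Rpl27a, a ribosomal protein, was the reverse, at 7.81 to 8.27 against 8.79 to 9.20. Without these 3 samples the SDs of the 4 genes were 0.28, 0.29, 0.15 and 0.16. The slow fibre genes did not follow this split, since replicate 1 was among the lowest in them and replicate 3 among the highest.

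Of 11 relations between single measures that were planned, 7 could be given, and none passed. The closest were that of Dbp with Arntl (Pearson r = -0.55, exact permutation p = 0.126, adjusted p = 0.442, Spearman rho = -0.55, exact permutation p = 0.133, n = 9) and that of the 3'/5' ratio with Fos. For the latter, r was -0.64 (exact permutation p = 0.0627, adjusted p = 0.439, n = 9) and rho was -0.63 (exact permutation p = 0.076, adjusted p = 0.465). Without the 2 samples with the most extreme Dbp the first r was -0.71, and without the 2 most extreme 3'/5' ratios the second was -0.15. Without replicate 6 the second r was -0.89 (exact permutation adjusted p = 0.0226, n = 8). That was the strongest of the results with 1 sample left out, which ranged from -0.89 to -0.37, so this p-value belongs to a picked result. All tests were 2-sided and adjusted by Benjamini-Hochberg over the 7. No r is given for Myh7 over all samples because 2 of them stand apart. Within the other 7 its r was -0.24 with Myh2, -0.13 with Adipoq and -0.25 with the 3'/5' ratio (exact permutation adjusted p = 0.785 for each, n = 7; rho 0.04, 0.04 and 0.07, adjusted p = 0.964 for each).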

How the data were processed

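Per the labels' protocols, biotin-labelled cRNA was made from total RNA of each EDL muscle sample and measured on an Affymetrix array of 1 colour. The table that the authors deposited holds an intensity on a linear scale for each of 45101 probe sets. The submitters' processing notes list GCOS 1.4, with no algorithm, target or filter given. Arrays carry no count of molecules, and the number of arrays limits the precision.

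The 64 control probe sets were left out, 16 was added to each intensity, log2 was taken and the 9 wild-type arrays were quantile-normalized. Of the rest, 34945 probe sets had 1 gene symbol in the platform annotation (34741 updated through the Entrez identifier to the GRCm38.p6 gene table), 932 had several and 9160 are unnamed here. The probe set with the highest mean stood for its gene. Means and SDs over the 9 samples were computed with pandas 2.3.3, numpy 2.4.6 and scipy 1.17.1 in Python 3.11.15, and figures drawn with matplotlib 3.10.9. The scripts were tested on simulated data. Gene lists (33, of 549 genes, 505 measured) stand for pathways and cell types.

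The named genes were the 20 brightest, the 30 with the largest and 10 with the smallest SD at a signal of 8 or more, up to 3 members of each list, 3 on each side of the level threshold and a set of fibre type, clock and tissue markers; other variable genes were named because of the group they fell in. The samples, lists and genes were chosen with earlier results of these data known. Alternatives were other scalings, pseudocounts of 1 and 64, other choices of probe set, other thresholds, the median absolute deviation and leaving out each sample. Leaving out replicates 1 and 7 together or 1, 2 and 3 together, and relations of Myh7 within 7 samples, were added after the data were seen.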

Additional observations from a re-analysis of the deposited data

Results flagged for a closer look

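In 181 genes, the named and the variable ones, the gap between the most extreme sample and its neighbour was set against the range of the 9 samples (Dixon's ratio, against its usual critical value). It was exceeded in 20 of them. Chance alone exceeds it in about 1 in 20 groups, a rate that does not hold for genes chosen by their spread, so these ratios are a description. With replicate 9 the highest, the ratio was 0.702 for Ankrd33b, 0.646 for Ucp3, a mitochondrial uncoupling protein, 0.534 for Trim63, 0.5257 for C730049O14Rik, 0.513 for Pim3, 0.511 for Sik1 and 0.4931 for Nfil3. With replicate 9 the lowest it was 0.516 for Sox18. With replicate 4 the highest it was 0.719 for Postn, at 11.44 against 8.70 in the next sample, 0.509 for Col5a2, 0.496 for Tnmd and 0.517 for Myh1, and with replicate 4 the lowest 0.539 for Ndufs4, a subunit of complex I. With replicate 8 the highest it was 0.594 for Bpgm and 0.529 for Rsad2. With replicate 2 the highest it was 0.717 for Cxcl1 and 0.4931 for Dok7, an adaptor of the neuromuscular junction. With the lowest value in replicate 5, Abhd12 had a ratio of 0.766, in replicate 1, Myh4 one of 0.575, and in replicate 6, Myh2 one of 0.528. A second probe set of Abhd12 was not lowest in replicate 5. The whole range of Myh4 was 13.62 to 13.71 and that of Myh1 was 13.66 to 13.82, where quantile normalization leaves little room for a difference.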

How the results depend on the processing

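No paired analysis was possible because the samples form 1 group and no test between groups was made. With the mean of all probe sets of a gene, 53 genes were variable in place of 80, 19 of the 30 largest SDs and 9 of the 20 brightest genes were shared, and the median SD was 0.53 for the slow fibre list and 0.63 for the blood list. Without probe sets that may bind several transcripts, the blood list's median was 0.84, and with all measured members it was 0.66, with 0.61 for the slow fibre list. A mean of at least 9 left 46 genes, with 19 of the 30 shared. An SD threshold of 0.4 gave 149 genes and one of 1 gave 17. The fast fibre median SD was 0.0843 as deposited and 0.167 with arrays centred on their medians, and that of oxidative phosphorylation was 0.0809 and 0.154. Without replicates 1 and 7 the slow fibre median was 0.58. For the 3'/5' ratio with Fos, r was -0.893 without replicate 6, and leaving out 1 sample gave -0.893 to -0.372. The causes were not tested, apart from thresholds, which change the genes counted. Leaving out 1 sample gave 64 to 91 variable genes, 23 to 29 of the 30 and 19 to 20 of the 20 brightest. Median SDs then lay between 0.88 and 1.10 for slow fibre, 0.45 and 0.59 for immediate early, 0.17 and 0.19 for heat shock, 0.29 and 0.39 for matrix, 1.09 and 1.39 for blood, 0.16 and 0.26 for clock, 0.04 and 0.05 for fast fibre and 0.05 and 0.06 for oxidative phosphorylation genes. Arrays as deposited, centred or normalized over all 19 gave 85, 84 and 80 variable genes, and 104 were variable without replicates 1, 2 and 3. Genes below a signal of 8, where spread is wider at low signal, were not ranked.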
